A study of Neurospora crassa with 16 samples.

Results

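A strain of the filamentous fungus Neurospora crassa labelled △stk-12, after a protein kinase gene, was set against the wild type (WT) on the third and the fifth day of growth on cellulose, and the change of their difference between these days was tested per gene. Of the 16 libraries of the series, the 8 of these 2 days were compared, 2 each from △stk-12 at 3 days (3d), WT at 3d, △stk-12 at 5 days (5d) and WT at 5d. Conidia of each strain had been put into Vogel's salts with 2% (w/v) Avicel, a crystalline cellulose that served as the carbon source, and batch cultures were kept at 25 °C in constant light. Total RNA of the harvested mycelia was sequenced. The labels name no strain background, do not say what part of stk-12 was removed, and do not say that replicates were separate cultures. The p-values rest on the spread between libraries of a group, pooled over all 16 libraries of the series. That spread may be technical. For each gene the log2 difference △stk-12 minus WT at 3d was subtracted from that at 5d. This value is called the shift below: below 0, △stk-12 stood lower relative to WT at 5d than at 3d. Of 9730 genes, 8983 passed the filter on low counts and were tested.

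Fungi take cellulose apart outside the cell: endoglucanases cut the chain inside, cellobiohydrolases release cellobiose from its ends, lytic polysaccharide monooxygenases cleave it by oxidation with electrons from cellobiose dehydrogenase, and beta-glucosidases split cellobiose to glucose. In Neurospora crassa the transcription factors CLR-1 and CLR-2 switch these genes on, XLR-1 does so for hemicellulase genes, and CRE-1 represses them when easily used sugars are at hand. Apart from carbon, growth on a polymer draws on secretion, nitrogen and amino acid supply, and an old culture can turn to conidiation.

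Gene reads per library ran from 15309632 to 22731924. Replicates of WT at 5d were further apart than those of the other groups compared, with a chi-square per degree of freedom of 22.6 between their counts, against 5.70 to 9.19 elsewhere. The spread used in the tests was pooled over groups, so it may be too small for comparisons with WT at 5d. Reads of stk-12 were fewer than in WT but present in the libraries labelled △stk-12, 761 and 706 at 3d and 1021 and 1190 at 5d, against 2429 and 2233 in WT at 3d and 2065 and 2108 in WT at 5d. Its strain difference was -1.51 at 3d and -1.21 at 5d (log2), a shift of 0.31 ± 0.0969 (SE; edgeR adjusted p = 0.014). For matA-1, which belongs to the A mating type locus, the 4 △stk-12 libraries held 0 reads, against 4396 and 3760 in WT at 3d and 2201 and 1622 in WT at 5d, so that the stk-12 genotype and the mating type cannot be told apart in any strain difference. The 10 cellulase genes took 5.99 and 6.73% of the gene reads in △stk-12 at 3d, against 1.76 and 1.67% in WT at 3d. At 5d they took 1.20 and 1.26% in △stk-12, against 2.23 and 1.87% in WT. The 12 markers of conidia and aerial hyphae summed to 2298 and 2441 CPM in △stk-12, against 4045 and 4181 CPM in WT, at 3d, and to 5227 and 5168 CPM in △stk-12, against 3965 and 3094 CPM in WT, at 5d. Most of these sums came from ccg-1, con-8 and ccg-9; the other 9 markers summed to 286 and 314 CPM in △stk-12, against 1840 and 1833 CPM in WT, at 3d, and to 345 and 349 CPM in △stk-12, against 1069 and 651 CPM in WT, at 5d. None of the 12 was at 0 reads in any of the 8 libraries. CPM are read counts scaled to the TMM-normalised library size, and they are not scaled by gene length, so that they compare libraries and not genes. In mycelia, fewer hyphae of a kind and less RNA per hypha cannot be told apart.

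The strain difference depended on the day for a large share of genes. The shift was past the threshold for 4663 genes (edgeR quasi-likelihood test, Benjamini-Hochberg adjusted p under 0.05), 51.9% of the 8983 tested. For 2368 of them (26.4%) the shift was above 0 and for 2295 (25.5%) below 0, and 1403 (15.6%) shifted by at least 2-fold. With library totals in place of TMM scaling 4713 genes were past the test, 2926 above 0 and 1787 below 0, and the median shift of the genes tested was 0.12 in place of -0.004 on the log2 scale. At 3d by itself 5342 genes (59.5%) differed between the strains, 2645 higher in △stk-12 (29.4%) and 2697 lower (30%). At 5d 5530 genes (61.6%) did, 2751 higher (30.6%) and 2779 lower (30.9%). With library totals those splits were 1648 higher and 4249 lower at 3d, and 2046 higher and 3315 lower at 5d.

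Genes past the test for the shift fell into classes. A gene was called reversed where the strains differed past the test at both days and in opposite directions, faded where they differed at 3d and by less at 5d, and grown where they differed at 5d and by more than at 3d. Reversed genes numbered 927 (10.3% of genes tested). Of these, 468 were higher in △stk-12 at 3d and lower at 5d, with median differences of 0.63 and -0.53 on the log2 scale, and 459 were lower and then higher, with medians of -0.39 and 0.41. Faded genes numbered 1916 (21.3%), 1020 of them higher in △stk-12 at 3d and 896 lower. The difference grew for 1728 genes (19.2%), 970 higher in △stk-12 at 5d and 758 lower, and 92 genes met none of these definitions. The class definitions fix the signs of these medians. Under library totals 3129 of the 4571 classified genes had the same class, and 597 of the 927 reversed genes were again reversed. Leaving out △stk-12 3d replicate 1 left 270 genes in the class lower and then higher.

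**Figure D1:**
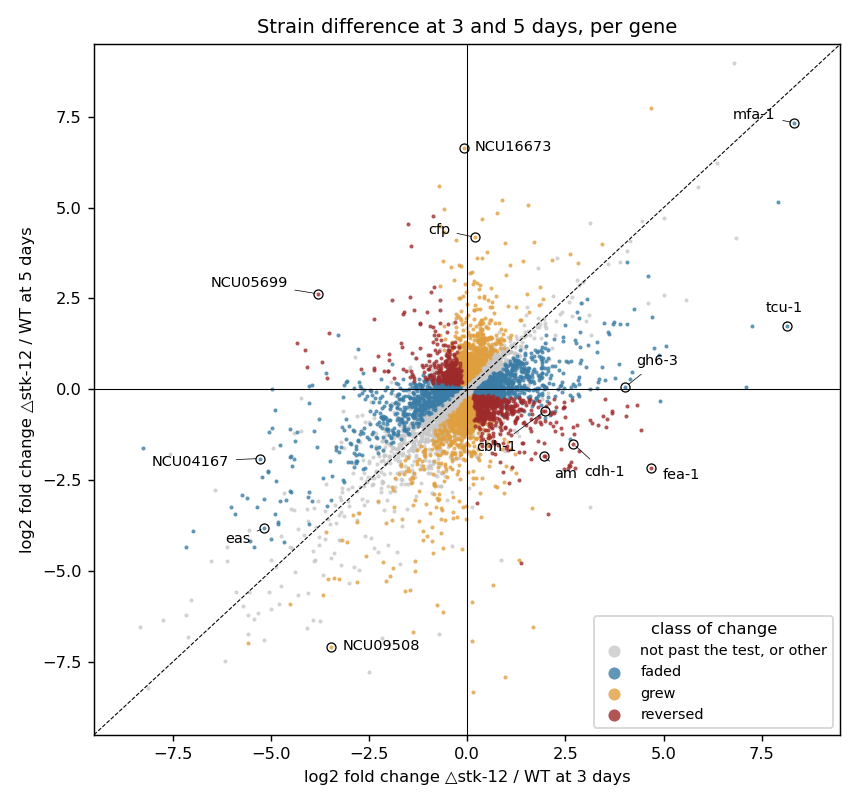
Each point is a gene, placed by its log2 difference △stk-12 / WT at 3d (horizontal axis) and at 5d (vertical axis), and coloured by class; on the dashed line both are equal, and 10 genes lie outside the range shown. Reversed genes fill the lower right and upper left, with fea-1 at 4.69 and -2.17, faded genes lie along the horizontal axis, with tcu-1 at 8.14 and 1.73, and grown genes lie along the vertical axis, with cfp at 0.19 and 4.19.

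A change of the strain difference can come with movement in either strain. Between 3d and 5d 5653 genes changed in △stk-12 (62.9%; 2848 rose and 2805 fell) and 4905 changed in WT (54.6%; 2436 rose and 2469 fell). With library totals the △stk-12 split was 3857 and 2064. Among the 4663 genes with a shift, 1666 changed in △stk-12 without passing the test in WT, 910 in WT without passing it in △stk-12, 852 changed in opposite directions, 1143 in the same direction, and 92 passed in neither strain. Reversed genes moved in opposite directions in 352 of 927 cases, in △stk-12 without a called change in WT in 284, in WT without a called change in △stk-12 in 94, and in the same direction in 197.

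**Figure D2:**
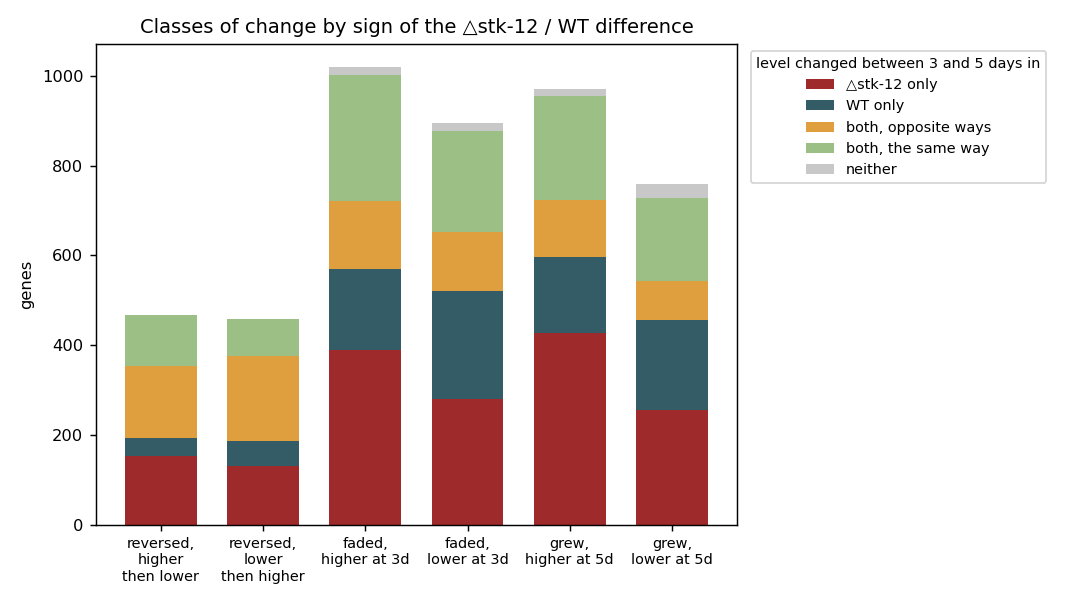
Bars give the number of genes per class and sign of the strain difference, divided by which strain's level changed past the test between 3d and 5d. Movement in △stk-12 without a called WT change is the largest portion of the faded genes, higher (390 of 1020) or lower (279 of 896) at 3d. It is also the largest portion of the genes whose difference grew, to higher (427 of 970) or lower (255 of 758) at 5d.

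The cellulose-degrading enzymes carried a large reversal. Of 10 cellulase genes tested, 9 had a shift below 0 (25.5% of all genes tested did) and none above it. Of the 10, 7 reversed: at 3d they were higher in △stk-12 than in WT, and at 5d lower. Among all 8983 genes tested, 468 reversed in that direction. The median strain difference of the 10 was 1.95 at 3d and -1.26 at 5d on the log2 scale, against -0.019 and -0.005 for all genes. The level of 9 of the 10 fell in △stk-12 between the days, whereas 7 rose in WT (27.1% of all genes tested did). Counts of these cellulases below 0 were 9 or 10 under each other scaling, tool and left-out library. Of the 12 markers of conidia and aerial hyphae, 7 rose and 2 fell in △stk-12 between the days. Among all genes tested 31.7% rose and 31.2% fell in △stk-12. The part of the markers in the enzyme results was not tested.

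Among the exo-acting cellulases, cbh-1, the main cellobiohydrolase gene, had 27904 and 33267 CPM in the △stk-12 libraries and 8096 and 7456 CPM in the WT libraries at 3d. At 5d it had 4853 and 5125 CPM in △stk-12, against 8535 and 6531 CPM in WT. The strains did not overlap on either day, and △stk-12 stood above WT at 3d and below it at 5d. The shift of cbh-1 was -2.57 ± 0.159 (log2 ± SE; edgeR adjusted p = 1.97e-09). Its △stk-12 level fell by 2.62 on the log2 scale, while the WT step of -0.05 did not pass the test (adjusted p = 0.746 in edgeR). gh6-2, the second cellobiohydrolase, moved alike, with differences of 1.93 at 3d and -0.60 at 5d. For gh6-3, a further family 6 cellobiohydrolase, the 3d values were 10370.2 and 12457 CPM in △stk-12, against 746 and 654 CPM in WT. At 5d the values were 2469 and 2818 CPM in △stk-12, against 2554 and 2494 CPM in WT, and the libraries of the strains overlapped. Its difference of 4.03 at 3d thus faded to 0.07 at 5d (edgeR adjusted p = 0.604), with the △stk-12 level falling by 2.11 and the WT level rising by 1.85 on the log2 scale. gh6-1 faded as well, with a difference of 4.91 at 3d and -0.31 at 5d.

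Endoglucanase genes, whose products open the chain inside, reversed as well. gh5-1, an endoglucanase gene, showed 3477 and 3964 CPM in △stk-12, against 1189.8 and 1058 CPM in WT, at 3d, and 313 and 350.1 CPM in △stk-12, against 1234 and 997 CPM in WT, at 5d. △stk-12 was thus above WT in both libraries at 3d and below it in both at 5d. The shift of gh5-1 was -3.48 ± 0.153 (edgeR adjusted p = 3.34e-11), and its WT level did not pass the test between the days. The endoglucanase genes gh7-1, gh7-2 and gh45-1 reversed with shifts of -2.85, -3.72 and -3.83. gh7-4, which the deposited table annotates as an exoglucanase, reversed as well, with a shift of -4.64, and its WT level rose by 3.39 on the log2 scale. gh7-3 had 3 and 0 reads in △stk-12 at 3d and 0 in both △stk-12 libraries at 5d, against 48 and 44 in WT at 3d and 102 and 103 in WT at 5d, so that no fold change is given for it. It was not past the test for the shift.

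Oxidative cellulose degradation followed the same course. Of 17 genes for lytic polysaccharide monooxygenases and cellobiose dehydrogenases, 16 had a shift below 0 and none above. Among all genes tested 25.5% shifted below 0 and 26.4% above. Of the 16, 12 reversed from higher to lower, beside 468 of all 8983 genes tested. The medians of the list were 2.44 at 3d and -0.76 at 5d. cdh-1, which encodes cellobiose dehydrogenase, had 7333 and 8795 CPM in △stk-12, against 1334 and 1161 CPM in WT, at 3d. At 5d it had 540.2 and 599.7 CPM in △stk-12, against 1697 and 1507 CPM in WT, so that the order of the strains turned without overlap. Its shift was -4.18 ± 0.165 (edgeR adjusted p = 1.07e-11). The monooxygenase gene gh61-12 had 462 and 473 CPM in △stk-12 and 24.5 and 22.3 CPM in WT at 3d, and 15.2 and 14.5 CPM in △stk-12, against 20.2 and 20 CPM in WT, at 5d. △stk-12 fell by 4.97 on the log2 scale, while the WT step of -0.22 did not pass (edgeR adjusted p = 0.0609). gh61-14, gh61-11, gh61-8 and gh61-5 reversed with shifts of -4.66, -4.64, -3.94 and -3.63. gh61-4 was 1 of 2 members whose difference grew to lower in △stk-12: it was -0.21 at 3d, which did not pass, and -1.20 at 5d. The single member of the list without a shift past the test was NCU07974, annotated as endoglucanase B (0.05, edgeR adjusted p = 0.73).

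Hemicellulase and pectin enzyme genes, whose products attack the other polysaccharides of the plant cell wall although the medium held cellulose, shifted in the same direction. Of 27 hemicellulase genes 24 had a shift below 0, beside 25.5% of all genes tested. Of the 27, 13 reversed from higher to lower, beside 468 of all 8983 genes tested. The medians of the 27 were 1.86 at 3d and -0.64 at 5d. Of 8 pectin enzyme genes 7 shifted below 0 and 4 reversed, with medians of 2.61 and -0.60. The feruloyl esterase gene fea-1, whose product frees ferulic acid from hemicellulose, had the most negative shift among the reversed genes named here. It had 2031 and 2679 CPM in △stk-12, against 91.8 and 90.6 CPM in WT, at 3d, and 139 and 156 CPM in △stk-12, against 804 and 523 CPM in WT, at 5d. The strains crossed: △stk-12 fell by 4.0 and WT rose by 2.86 on the log2 scale, and the shift was -6.86 ± 0.242 (edgeR adjusted p = 3.2e-12). The xylanase gene gh11-1 crossed in the same way, with differences of 2.84 at 3d and -1.69 at 5d. gh43-6, of glycoside hydrolase family 43, had differences of 3.67 and -0.59.

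Another xylanase gene, gh10-1, had 6791 and 7756 CPM in △stk-12, against 559 and 522 CPM in WT, at 3d, and 2364 and 2528 CPM in △stk-12, against 2400.1 and 1558 CPM in WT, at 5d. Its 5d libraries overlapped, and the difference faded to 0.31 (edgeR adjusted p = 0.0682). An excess remained in gh43-4, for which the files give an arabinofuranosidase: it had 41.5 and 49.3 CPM in △stk-12, against 7.13 and 6.28 CPM in WT, at 3d, and 73.8 and 83 CPM in △stk-12, against 30.5 and 30.6 CPM in WT, at 5d, and was still 1.36 higher on the log2 scale at 5d. Its level rose in both strains, by 0.79 in △stk-12 and 2.18 in WT. Among the pectin enzymes, the pectate lyase gene ply-2 reversed with a shift of -4.52 and the rhamnogalacturonase gene asd-1 with -4.12. The single hemicellulase gene above 0, ce3-1, had a shift of 0.38 (edgeR adjusted p = 0.0498), which was lost under 11 of 15 alternatives (edgeR adjusted p = 0.269 without △stk-12 3d replicate 1, the highest of them).

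**Figure D3:**
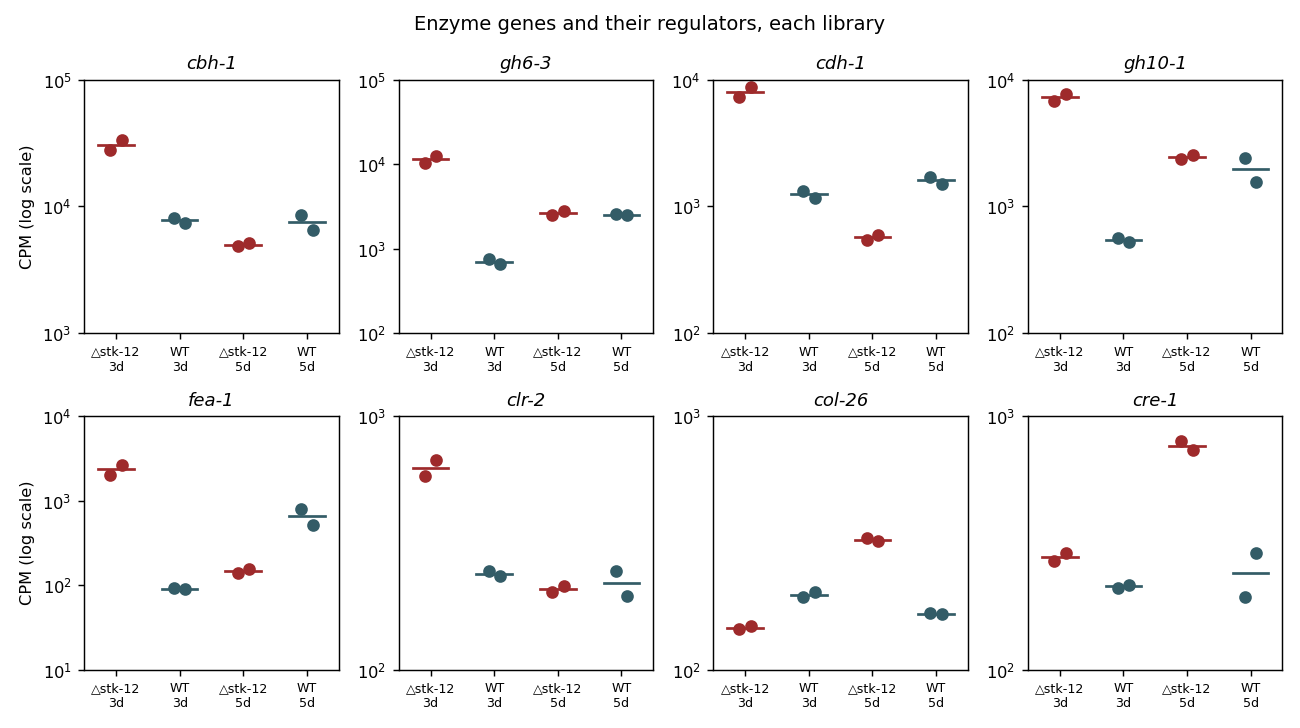
Points are the CPM of single libraries on a log axis and bars the mean of the 2 libraries, for △stk-12 and WT at 3d and then at 5d. cbh-1, cdh-1 and fea-1 change order between the days, gh6-3 and gh10-1 end with overlapping strains at 5d, clr-2 declines in △stk-12, and col-26 and cre-1 are high in △stk-12 at 5d.

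Beta-glucosidase genes were divided. Of 7 tested, 5 had shifts below 0 and 2 above, beside 25.5% and 26.4% of all genes tested, and the median shift was -0.43. gh3-4, which encodes an extracellular beta-glucosidase, had 2543 and 2985 CPM in △stk-12, against 831 and 761 CPM in WT, at 3d, and 1710.3 and 1799 CPM in △stk-12, against 1492 and 1196 CPM in WT, at 5d. The gap narrowed but △stk-12 stayed above WT in both libraries, with a shift of -1.41 ± 0.148 (edgeR adjusted p = 9.31e-07). gh1-1, an intracellular beta-glucosidase gene, reversed, with differences of 0.84 and -1.03. gh3-6 had 1425 and 1369 CPM in △stk-12, against 1218 and 1158 CPM in WT, at 3d, and 98.6 and 98.2 CPM in △stk-12, against 607 and 460.0 CPM in WT, at 5d. The strains were close at 3d, and a deficit grew at 5d to -2.44 on the log2 scale. With DESeq2 size factors gh3-6 was 0.26 higher at 3d (edgeR adjusted p = 0.0402) and so counted as reversed. gh3-5 and gh3-1 shifted above 0, by 0.41 and 0.53. The gh3-5 shift was lost without △stk-12 3d replicate 1, at 0.26 (edgeR adjusted p = 0.0908), and without WT 5d replicate 2, at 0.29 (edgeR adjusted p = 0.0662).

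Of 10 regulators of enzyme genes, 6 had a shift above 0 and 3 below, beside 26.4% and 25.5% of all genes tested. The 3 below were clr-2, clr-1 and NCU01856, which encodes the unfolded protein response factor HAC1. clr-2, the inducer of cellulase genes, had 581 and 673 CPM in △stk-12, against 245 and 234 CPM in WT, at 3d, and 203 and 215 CPM in △stk-12, against 244 and 196 CPM in WT, at 5d. The △stk-12 excess of 3d was gone and the strains overlapped at 5d (shift -1.47 ± 0.205, edgeR adjusted p = 2.04e-05). At 5d clr-2 differed by -0.08, clr-1 by 0.05 and NCU01856 by -0.00131 on the log2 scale, none past the test. cbh-1, gh5-1 and cdh-1 were past it below WT at 5d. The part of these regulators in the enzyme results was not tested.

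Among the 6 regulators above 0 were cre-1 and col-26. cre-1, whose product represses enzyme genes on preferred sugars, had 269 and 288 CPM in △stk-12, against 211 and 217 CPM in WT, at 3d, and 799 and 734 CPM in △stk-12, against 194 and 289 CPM in WT, at 5d. Both △stk-12 libraries of 5d lay above the other 6, and the shift was 1.29 ± 0.257 (edgeR adjusted p = 0.000594). col-26, a regulator needed for starch use and glucose sensing, had 144 and 149 CPM in △stk-12, against 194 and 202 CPM in WT, at 3d, and 331 and 322 CPM in △stk-12, against 168 and 165 CPM in WT, at 5d. It reversed from lower to higher in △stk-12, with a shift of 1.40 ± 0.103 (edgeR adjusted p = 1.52e-08). For xlr-1, the hemicellulase activator, the strain difference was 0.58 at 5d; the WT level fell by 0.46, and the △stk-12 step was 0.02 (edgeR adjusted p = 0.811). vib-1, needed for enzyme gene induction, was higher in △stk-12 at both days, by 0.75 and 0.98, and its shift did not pass (edgeR adjusted p = 0.0875, and 0.00713 with library totals).

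Sugar transporter genes mostly shifted above 0, 8 of 12 against 2 below, beside 26.4% and 25.5% of all genes tested. Their medians were -1.10 at 3d and -0.54 at 5d. The cellodextrin transporters, which take up the products of cellulases, differed from each other. cdt-2 had 13447 and 14376 CPM in △stk-12, against 11591 and 11017 CPM in WT, at 3d, and 2488 and 2555 CPM in △stk-12, against 4971 and 3513 CPM in WT, at 5d. It fell in both strains and further in △stk-12 (shift -1.05 ± 0.162, edgeR adjusted p = 5.59e-05), and with library totals its 3d difference was 0.07 (edgeR adjusted p = 0.529). cdt-1 was higher in △stk-12 on both days, by 0.86 and 0.63, and its shift of -0.23 did not pass (edgeR adjusted p = 0.227; 0.00479 without WT 5d replicate 2). NCU00821, annotated as a sugar transporter, had 56.4 and 63.9 CPM in △stk-12, against 1406 and 1359 CPM in WT, at 3d, and 154 and 157 CPM in △stk-12, against 632 and 495 CPM in WT, at 5d. WT was above △stk-12 on both days and the gap narrowed, by a shift of 2.66 ± 0.164 (edgeR adjusted p = 1.84e-09). NCU04963, annotated as a high-affinity glucose transporter, reversed, with differences of -1.30 at 3d and 0.87 at 5d.

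**Figure D4:**
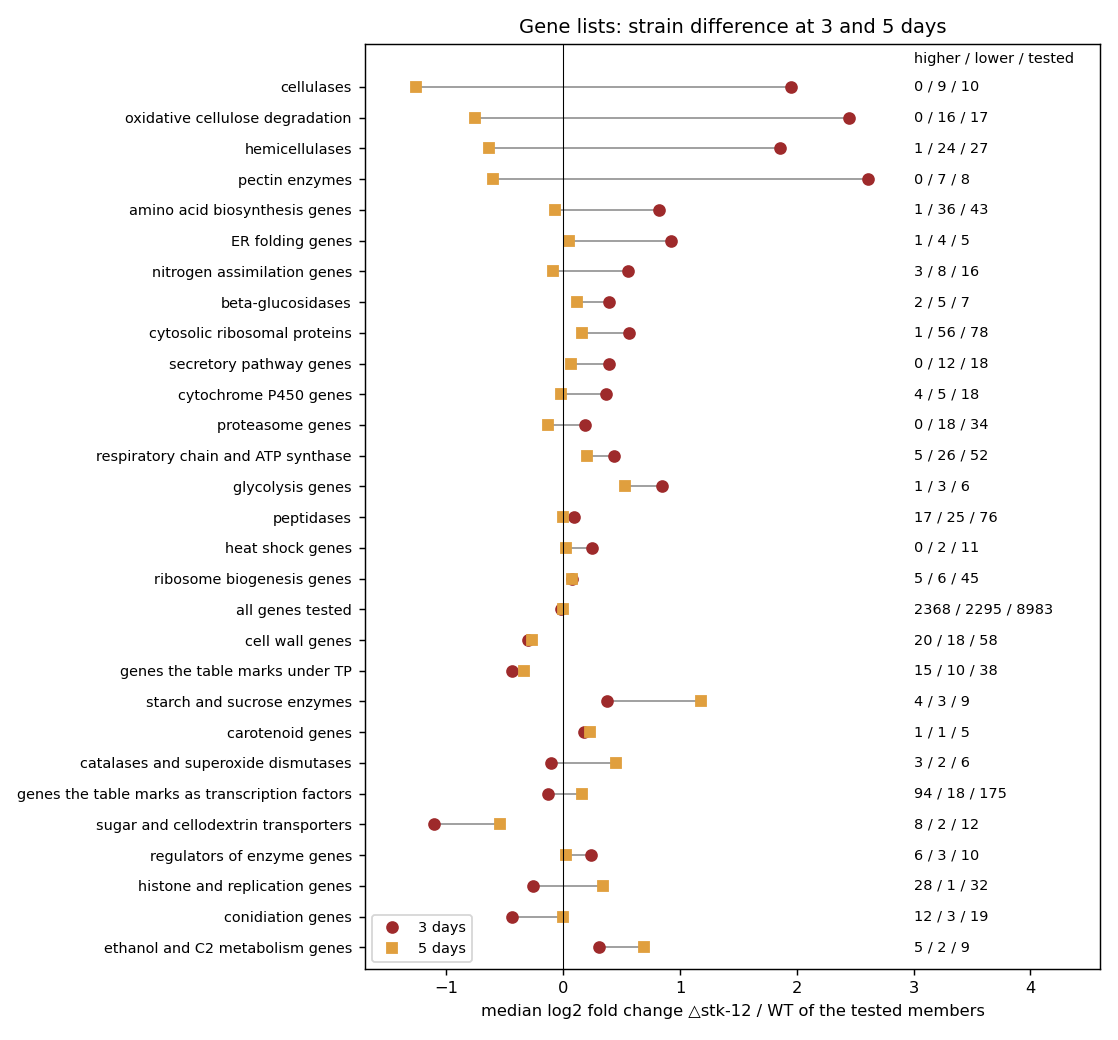
For each gene list, the median log2 difference △stk-12 / WT of its tested members at 3d (circles) and 5d (squares), with the numbers of members whose shift was above 0, below 0 and tested at the right. The 4 lists of cell wall enzymes cross 0 from a median of 1.86 to 2.61 at 3d down to -0.60 to -1.26 at 5d, and the histone and replication genes cross in the opposite direction, from -0.26 to 0.34.

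Genes that fold and move secreted proteins mostly shifted below 0 as well. Of 18 secretory pathway genes 12 had a shift below 0 and none above, and of 5 ER folding genes 4 did and 1 shifted above, where 25.5% of all genes tested shifted below 0 and 26.4% above. grp78, the chaperone of the endoplasmic reticulum, had 942 and 1024 CPM in △stk-12, against 472 and 459.6 CPM in WT, at 3d, and 475 and 493 CPM in △stk-12, against 445 and 411 CPM in WT, at 5d. An excess of 1.08 on the log2 scale at 3d was 0.18 at 5d (shift -0.90 ± 0.097, edgeR adjusted p = 1.26e-06). The translocon gene sec61-1 had a shift of -0.98 and the calreticulin gene NCU09265 one of -1.04. The exception was eor-1, which encodes the oxidoreductin that drives disulfide formation. It had 38.1 and 39.2 CPM in △stk-12, against 32.5 and 28.8 CPM in WT, at 3d, and 116 and 128 CPM in △stk-12, against 24 and 28.6 CPM in WT, at 5d, and its difference grew (shift 1.88 ± 0.164, edgeR adjusted p = 1.14e-07). With library totals 8 of the 18 secretory genes were below 0, as were 19.9% of all genes tested, while 32.6% were above.

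Of 78 cytosolic ribosomal protein genes 56 shifted below 0 and 1 above (25.5% and 26.4% of all genes did), 51 of them from higher in △stk-12 at 3d to a smaller difference, with medians of 0.56 at 3d and 0.17 at 5d. The ribosomal protein genes un-25 and crp-16 had the most negative shifts of that list, -1.01 and -0.82. Of 52 respiratory chain and ATP synthase genes 26 were below 0 and 5 above, and of 34 proteasome genes 18 were below 0 and none above. In the respiratory list the complex I subunit gene nuo21.3a had a shift of -1.02 and the succinate dehydrogenase gene tca-12 one of 0.54. With library totals the respiratory genes divided into 19 below and 8 above, and the proteasome genes into 13 and 2. Of all genes tested 19.9% were then below 0 and 32.6% above. Under that scaling pca-2, pca-5 and pca-6, proteasome subunit genes that reversed with TMM, had 3d differences of 0.03, 0.01 and 0.06, none past the test, so that their reversal depended on the scaling. Ribosome biogenesis genes were divided at 5 above and 6 below of 45, or 9 and 5 with library totals.

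Amino acid biosynthesis genes shifted below 0 in 36 of 43 cases and above 0 in 1, beside 25.5% and 26.4% of all genes tested. Their median difference was 0.82 at 3d and -0.07 at 5d. Between the days 40 of the 43 fell in △stk-12 and 31 in WT, beside 31.2% and 27.5% of all genes tested. arg-5, an arginine pathway gene, had 58.2 and 69.5 CPM in △stk-12, against 12.8 and 11.4 CPM in WT, at 3d, and 7.48 and 7.99 CPM in △stk-12, against 7.67 and 6.53 CPM in WT, at 5d. An excess of △stk-12 in both libraries at 3d gave way to overlapping strains at 5d (shift -2.27 ± 0.173, edgeR adjusted p = 2.44e-08). leu-2, a leucine pathway gene, reversed with a shift of -2.14, and aro-6, which acts at the start of aromatic amino acid synthesis, with -1.97. cpc-1, the transcription factor of cross-pathway amino acid control, was looked up after the values of this list had been seen. It had 1855 and 1677 CPM in △stk-12, against 1208 and 1179 CPM in WT, at 3d, and 714 and 760.0 CPM in △stk-12, against 1153 and 1318 CPM in WT, at 5d, and reversed as well (shift -1.31 ± 0.135, edgeR adjusted p = 7.6e-07).

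Nitrogen assimilation genes take up and reduce nitrate and fix ammonium. Of 16 tested, 8 shifted below 0 and 3 above, beside 25.5% and 26.4% of all genes. With library totals 6 of the 16 were above 0, beside 32.6% of all genes. Nitrate reductase, encoded by nit-3, makes nitrite from nitrate: nit-3 had 383 and 339 CPM in △stk-12, against 34.6 and 37 CPM in WT, at 3d, and 30 and 28.8 CPM in △stk-12, against 59.2 and 57.7 CPM in WT, at 5d. Without overlap on either day the strains changed order, with a shift of -4.33 ± 0.179 (edgeR adjusted p = 1.72e-11). The nitrate transporter gene nit-10 reversed with a shift of -4.56, and the nitrite reductase gene nit-6 faded, with -2.20. am, the gene of the NADP-dependent glutamate dehydrogenase that fixes ammonium, had 1939 and 1810.3 CPM in △stk-12, against 528 and 447 CPM in WT, at 3d, and 18.3 and 21.5 CPM in △stk-12, against 85.3 and 57.5 CPM in WT, at 5d. The transcript fell in both strains, with steps of -6.56 in △stk-12 and -2.77 in WT on the log2 scale, and △stk-12 ended below WT (shift -3.79 ± 0.209, edgeR adjusted p = 5.22e-10). gdh-1, the gene of the NAD-dependent enzyme that releases ammonium, had the opposite course, with 155 and 162 CPM in △stk-12, against 179 and 174 CPM in WT, at 3d, and 406 and 405 CPM in △stk-12, against 202 and 211 CPM in WT, at 5d (shift 1.13 ± 0.111, edgeR adjusted p = 4.66e-07), and with library totals it counted as reversed. NCU09909, annotated as a urea transporter and named by its shift, reversed with -5.54.

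Wide 3d differences faded in tcu-1, its neighbour NCU00829 and sod-2. tcu-1, a copper transporter gene of the Ctr family, had 7524 and 8569 CPM in △stk-12, against 27.2 and 29.8 CPM in WT, at 3d, and 1318 and 1333 CPM in △stk-12, against 277 and 519.6 CPM in WT, at 5d. △stk-12 was above WT on both days, but it fell by 2.60 while WT rose by 3.81 on the log2 scale (shift -6.41 ± 0.277, edgeR adjusted p = 2.79e-11). NCU00829, annotated as a ferric reductase, is the next gene to tcu-1 in the order of loci of the reference table (assembly NC12). It had 7806 and 8490.2 CPM in △stk-12, against 55.1 and 52.3 CPM in WT, at 3d, and 445 and 458 CPM in △stk-12, against 95.3 and 176 CPM in WT, at 5d. Its shift was -5.51 ± 0.258 (edgeR adjusted p = 7.3e-11). The strand used in counting is not given in the sources used here, so reads shared by these neighbours cannot be set apart. sod-2, a superoxide dismutase gene, had 2292 and 2497 CPM in △stk-12, against 85.3 and 92.3 CPM in WT, at 3d, and 338 and 339.5 CPM in △stk-12, against 119.8 and 187 CPM in WT, at 5d, and shifted by -3.61 ± 0.191 (edgeR adjusted p = 3.14e-10).

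The catalases, whose products remove hydrogen peroxide, and the superoxide dismutases were divided. Of 6 genes tested, 3 shifted above 0 (cat-3, cat-1 and sod-1) and 2 below (sod-2 and cat-2). Among all genes tested 26.4% shifted above 0 and 25.5% below. cat-3 had 253 and 282 CPM in △stk-12, against 481 and 427 CPM in WT, at 3d, and 304 and 327 CPM in △stk-12, against 146 and 119 CPM in WT, at 5d. It reversed from lower to higher in △stk-12, and the WT level fell by 1.78 on the log2 scale (shift 2.01 ± 0.143, edgeR adjusted p = 1.04e-08). cat-1 shifted by 1.30 and ended at a difference of -0.06. sod-1, another superoxide dismutase gene, went against sod-2, with a shift of 0.59 (edgeR adjusted p = 0.00172) and differences of -0.51 at 3d and 0.08 at 5d. cat-2 shifted by -0.32 (edgeR adjusted p = 0.0249), which did not pass with library totals (edgeR adjusted p = 0.141) nor without WT 3d replicate 2, △stk-12 3d replicate 2 or △stk-12 5d replicate 1, with edgeR adjusted p of 0.0962, 0.108 and 0.117.

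Genes of ethanol and C2 metabolism shifted mostly above 0. Of 9 tested, 5 shifted above 0 and 2 below, beside 26.4% and 25.5% of all genes tested. The medians of the 9 were 0.31 at 3d and 0.69 at 5d. In △stk-12 7 of the 9 rose between the days, as did 31.7% of all genes tested. cfp, which encodes pyruvate decarboxylase, the step from pyruvate to acetaldehyde, had 159 and 164 CPM in △stk-12, against 150.4 and 132 CPM in WT, at 3d, and 2076 and 2458 CPM in △stk-12, against 129 and 120.0 CPM in WT, at 5d. The 2 △stk-12 libraries of 5d stood far above the other 6, and the shift was 4.0 ± 0.229 (edgeR adjusted p = 8.48e-10). adh-1, the alcohol dehydrogenase of the next step, had 650.0 and 855 CPM in △stk-12, against 1566 and 1267 CPM in WT, at 3d, and 5342 and 6509 CPM in △stk-12, against 1021 and 848 CPM in WT, at 5d. It reversed (shift 3.58 ± 0.422, edgeR adjusted p = 3.42e-06). The glyoxylate cycle gene acu-9, for malate synthase, shifted by 1.08 and the gluconeogenesis gene acu-6, for phosphoenolpyruvate carboxykinase, by 1.02. The 2 below 0 were acu-8 and acu-3, at -0.30 and -0.28, and neither passed with library totals (edgeR adjusted p = 0.20 for acu-8 and 0.229 for acu-3).

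Glycolysis genes were divided. gpd-1, the glyceraldehyde 3-phosphate dehydrogenase gene, had 1465 and 1509.6 CPM in △stk-12, against 1073 and 952 CPM in WT, at 3d, and 2841 and 3367 CPM in △stk-12, against 911 and 827 CPM in WT, at 5d, and its difference grew (shift 1.28 ± 0.124, edgeR adjusted p = 3.76e-07). gpi-1, for glucose-6-phosphate isomerase, faded with a shift of -0.97 and emp-7, for enolase, with -0.60. In all, 1 of 6 glycolysis genes shifted above 0 and 3 below, beside 26.4% and 25.5% of all genes tested. Among 9 starch and sucrose enzyme genes 4 shifted above 0 and 3 below, with 2 above without △stk-12 3d replicate 1. The glucoamylase gene gla-1 shifted by 0.96, and NCU08746, annotated with a starch binding domain, by -1.87.

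**Figure D5:**
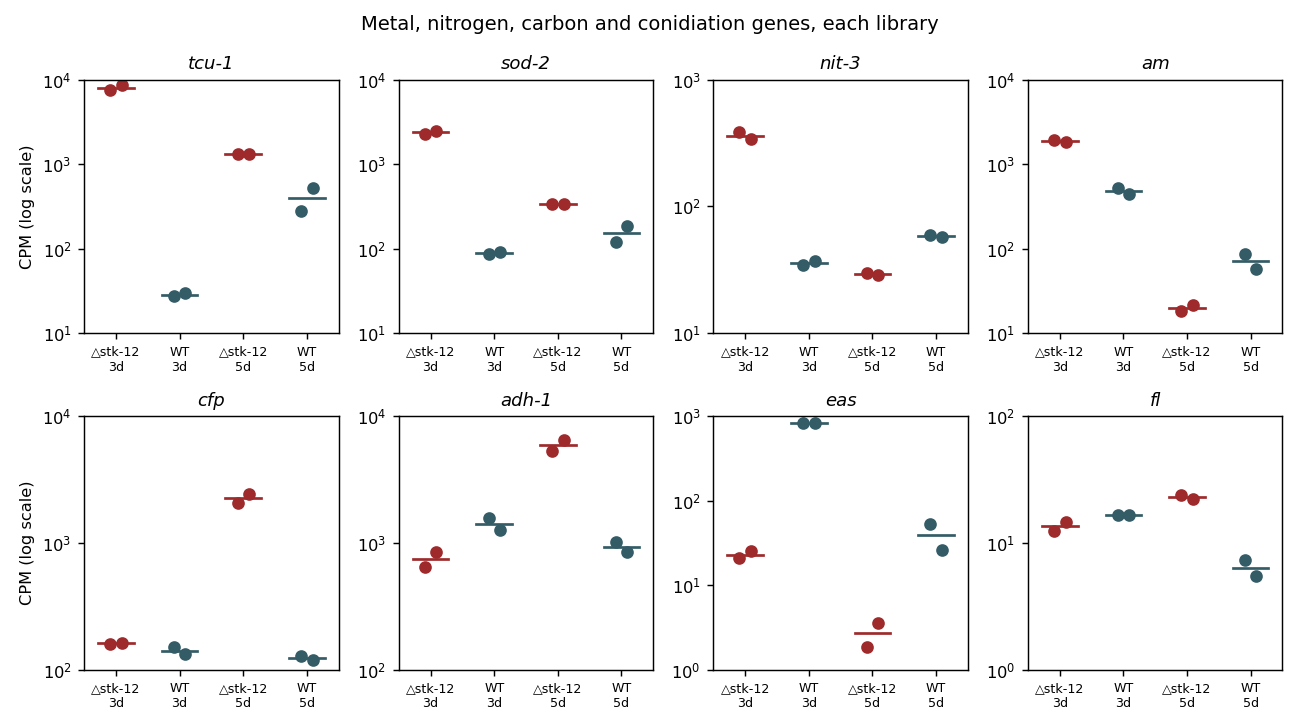
Points are the CPM of single libraries on a log axis and bars the mean of the 2 libraries, for △stk-12 and WT at 3d and then at 5d. tcu-1, sod-2 and nit-3 are high in △stk-12 at 3d, am declines in both strains, cfp and adh-1 are high in △stk-12 at 5d, and fl is higher in △stk-12 than in WT at 5d.

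DNA replication and histone genes, which serve nuclear division, shifted mostly above 0. Of 32 tested, 28 shifted above 0 (26.4% of all genes tested did) and 1 below. In WT 28 of the 32 fell between the days, against 17 in △stk-12, beside 27.5% and 31.2% of all genes tested. The medians of the strain difference were -0.26 at 3d and 0.34 at 5d. un-24, the large subunit gene of ribonucleotide reductase, had 157 and 151 CPM in △stk-12, against 156 and 152 CPM in WT, at 3d, and 131 and 139.6 CPM in △stk-12, against 76.1 and 60 CPM in WT, at 5d. At 3d the strains overlapped, and at 5d △stk-12 was above WT in both libraries (shift 0.99 ± 0.118, edgeR adjusted p = 3.65e-06). The catalytic subunit gene of DNA polymerase alpha, pola-1, shifted by 1.00 and that of DNA polymerase epsilon, NCU04548, by 1.53. The split into classes moved with the scaling, and un-24 and pola-1 were among the reversed genes with library totals. From lower to higher 10 genes reversed with TMM and 16 with library totals. Above 0 were 28 and 30, beside 26.4% and 32.6% of all genes tested. Of the 175 genes that the deposited table marks as transcription factors, 94 shifted above 0 and 18 below. Among all genes tested 26.4% shifted above 0 and 25.5% below. With library totals 11 of the 175 were below 0, as were 19.9% of all genes tested. sah-1, a zinc finger factor gene in that list, shifted by 2.48.

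Conidiation genes shifted above 0 in 12 of 19 cases and below 0 in 3, beside 26.4% and 25.5% of all genes tested. Their medians were -0.44 at 3d and -0.002 at 5d. fl, the fluffy gene, whose product directs conidiophore development, had 12.4 and 14.8 CPM in △stk-12, against 16.8 and 16.7 CPM in WT, at 3d, and 23.8 and 22.3 CPM in △stk-12, against 7.30 and 5.49 CPM in WT, at 5d. It was above WT in both △stk-12 libraries at 5d (shift 2.15 ± 0.18, edgeR adjusted p = 7.29e-08), and with DESeq2 size factors its 3d difference of -0.27 did not pass (edgeR adjusted p = 0.0662). con-8, a conidiation gene, had 247 and 255 CPM in △stk-12, against 297 and 314 CPM in WT, at 3d, and 1528 and 1449 CPM in △stk-12, against 525 and 374 CPM in WT, at 5d. Its difference grew, by a shift of 2.01 ± 0.213 (edgeR adjusted p = 1.04e-06), and with library totals con-8 counted as reversed. The summed level of the 12 markers lay lower in △stk-12 than in WT at 3d and higher at 5d. Without ccg-1 it was 1104 and 1209 CPM in △stk-12, against 2474 and 2459 CPM in WT, at 3d, and 2601 and 2575 CPM in △stk-12, against 1908 and 1303 CPM in WT, at 5d. Without con-8 and ccg-9 as well, the sum given above lay lower in △stk-12 than in WT on both days. Marker by marker, 2 were higher and 8 lower in △stk-12 past the test at 3d, and 4 were higher (con-8, ccg-1, ccg-9 and fl) and 5 lower (eas, con-6, con-10, con-13 and ccg-14) at 5d. Among all genes tested 29.4% were higher and 30% lower at 3d, and 30.6% and 30.9% at 5d.

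Single conidiation genes did not move as one. eas, the hydrophobin gene of the conidial rodlet layer, had 20.9 and 25.4 CPM in △stk-12, against 826 and 830.2 CPM in WT, at 3d, and 1.88 and 3.58 CPM in △stk-12, against 52.6 and 26.5 CPM in WT, at 5d. It fell in both strains, and △stk-12 was below WT in both libraries on both days. Its shift of 1.34 ± 0.488 (edgeR adjusted p = 0.0301) was lost when WT 3d replicate 1, WT 3d replicate 2, WT 5d replicate 2, △stk-12 3d replicate 1 or △stk-12 5d replicate 2 was left out, with edgeR adjusted p of 0.0505, 0.0547, 0.0728, 0.0916 and 0.382. con-10 was lower in △stk-12 on both days, with differences of -2.49 and -1.96, and its shift did not pass (edgeR adjusted p = 0.0906, 0.000133 without WT 5d replicate 1). rca-1, a Myb-like factor gene, kept a △stk-12 level of 16 and 17.6 CPM at 3d and 18.2 and 16.5 CPM at 5d while WT had 180.3 and 187 CPM at 3d and 87.3 and 91.9 CPM at 5d, a shift of 1.07 that came with the WT level. The clock-controlled gene ccg-13 went the opposite way: it had 13.1 and 17 CPM in △stk-12, against 27.7 and 27.5 CPM in WT, at 3d, and 5.17 and 5.07 CPM in △stk-12, against 118 and 114 CPM in WT, at 5d (shift -3.62 ± 0.263, edgeR adjusted p = 1.31e-08).

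Among pheromone and receptor genes, which serve mating, 2 of 4 shifted below 0, as did 25.5% of all genes, and none above. mfa-1, which encodes the pheromone made by mating type a strains, had 4432 and 5956 CPM in △stk-12, against 14.6 and 17.8 CPM in WT, at 3d, and 3542 and 3356 CPM in △stk-12, against 22.3 and 20.4 CPM in WT, at 5d (shift -0.99 ± 0.202, edgeR adjusted p = 0.000679). The pheromone receptor gene pre-2 was 4.70 higher in △stk-12 at 3d and 1.98 at 5d on the log2 scale, a shift of -2.71. The other receptor gene, pre-1, was lower in △stk-12, with differences of -1.48 and -1.26, and had no shift past the test. ccg-4, the pheromone precursor gene of the A mating type, had 0 and 1 reads in △stk-12, against 618500 and 483388 in WT, at 3d, and 1 and 3 reads in △stk-12, against 1104419 and 811397 in WT, at 5d. △stk-12 was at or under the floor of 3 reads on both days, so that no change of its strain difference could be read, and the shift did not pass (edgeR adjusted p = 0.787).

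Other lists held shifts in both directions, where 26.4% of all genes tested shifted above 0 and 25.5% below. No excess in either direction was read from their counts. Cell wall genes shifted above 0 in 20 and below 0 in 18 of 58 cases, peptidase genes in 17 and 25 of 76, cytochrome P450 genes in 4 and 5 of 18 (8 below without WT 5d replicate 2), and genes the table marks under TP in 15 and 10 of 38 (9 above without △stk-12 3d replicate 1). Carotenoid genes shifted above 0 in 1 and below 0 in 1 of 5 cases, with 4 above without WT 5d replicate 1. erg-8, the P450 of ergosterol synthesis, had 40.3 and 46.4 CPM in △stk-12, against 47.7 and 43 CPM in WT, at 3d, and 67.3 and 76.5 CPM in △stk-12, against 20 and 19.9 CPM in WT, at 5d, and its difference grew (shift 1.91 ± 0.165, edgeR adjusted p = 1e-07), or reversed with library totals. cyp450-11, a P450 monooxygenase gene, reversed with a shift of -2.78. Of 11 heat shock genes 2 shifted below 0 and none above; 25.5% of all genes shifted below 0. The 2 were NCU07232 and hsp60, at -1.13 and -0.57. NCU07232 was lost without WT 3d replicate 1, △stk-12 3d replicate 2 or △stk-12 5d replicate 2 (edgeR adjusted p = 0.0525, 0.0675 and 0.0797), and hsp60 without WT 3d replicate 2, △stk-12 3d replicate 2 or △stk-12 5d replicate 1 (edgeR adjusted p = 0.0778, 0.0704 and 0.0731).

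Next are the genes named by the size of their shift. Of those whose difference grew toward △stk-12, NCU16673, which has no annotated product, had 21.3 and 31.8 CPM in △stk-12, against 26.7 and 29.5 CPM in WT, at 3d, and 1967 and 1882 CPM in △stk-12, against 23.6 and 14.7 CPM in WT, at 5d (shift 6.73 ± 0.803, edgeR adjusted p = 3.84e-06). NCU01871, marked as a bHLH transcription factor in the deposited table, had 48.4 and 59.3 CPM in △stk-12, against 81.3 and 82 CPM in WT, at 3d, and 2253 and 2217 CPM in △stk-12, against 74 and 68.3 CPM in WT, at 5d (shift 5.57 ± 0.658, edgeR adjusted p = 3.4e-06). For NCU07853, annotated as uricase, which oxidises urate in purine breakdown, the shift was 4.92 ± 0.729 (edgeR adjusted p = 3.68e-05). NCU04276 and NCU05338, both without an annotated product, shifted by 6.30 and 5.20. In each of these 5 genes both △stk-12 libraries of 5d lay above the other 6 libraries. The naming rule asked for no overlap of the strains at 5d, so that part of this order was set by the choice. Looked up after these values were seen, 101 of the 188 genes whose difference grew by at least 2-fold toward △stk-12 (53.7%) had both WT libraries of 1 day above both △stk-12 libraries of that time, and 33.3% of all genes tested did.

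Among the 5 named genes whose difference grew against △stk-12, 4 rose in WT. In their class of 758 genes, 255 changed in △stk-12 alone and 201 in WT alone. Another 88 changed in opposite directions, 184 in the same direction, and 30 passed the test in neither strain. How many of the class rose in WT was not counted. NCU09508, annotated as a chitin deacetylase, which turns chitin into chitosan, had 1.58 and 1.59 CPM in △stk-12, against 17.4 and 17.6 CPM in WT, at 3d, and 2.92 and 2.92 CPM in △stk-12, against 427 and 361 CPM in WT, at 5d (shift -3.62 ± 0.257, edgeR adjusted p = 1.04e-08). It rose by 0.88 in △stk-12 and by 4.49 in WT on the log2 scale. NCU00607 and NCU05839, without annotated products, shifted by -2.49 and -2.12. Here gh3-6 was the exception, since it fell in both strains, by 3.83 in △stk-12 and 1.15 in WT.

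Among named genes that were lower in △stk-12 at 3d and faded, the largest shift belonged to NCU04935, annotated as a dynamin family protein. It had 17.7 and 16.2 CPM in △stk-12, against 259 and 265 CPM in WT, at 3d, and 18 and 19.7 CPM in △stk-12, against 19.4 and 15.5 CPM in WT, at 5d. The WT level fell, and the strains overlapped at 5d (shift 4.06 ± 0.138, edgeR adjusted p = 2.25e-12). NCU09650, without an annotated product, had 132 and 162 CPM in △stk-12, against 4421 and 4779 CPM in WT, at 3d, and 1251 and 1231 CPM in △stk-12, against 3125 and 2079.5 CPM in WT, at 5d. In this gene △stk-12 rose by 3.08 on the log2 scale and stayed below WT (shift 3.90 ± 0.238, edgeR adjusted p = 1.72e-09). NCU04167 and NCU10910, without annotated products, shifted by 3.38 and 3.41, and NCU05888, annotated as a desulfurization enzyme, by 3.29.

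Of the named genes that reversed from lower to higher in △stk-12, the largest shift was that of NCU05699, which has no annotated product. It had 10.6 and 11.6 CPM in △stk-12, against 142 and 165 CPM in WT, at 3d, and 32.3 and 26.2 CPM in △stk-12, against 5.06 and 4.39 CPM in WT, at 5d (shift 6.41 ± 0.192, edgeR adjusted p = 4.17e-13). NCU07819, annotated as an alpha-ketoglutarate-dependent taurine dioxygenase, an enzyme class that frees sulfur from sulfonates, had 3.22 and 3.17 CPM in △stk-12, against 6.51 and 5.11 CPM in WT, at 3d, and 272 and 288 CPM in △stk-12, against 11.7 and 8.83 CPM in WT, at 5d. Its 3d difference of -0.87 was small beside the 4.77 of 5d (shift 5.64 ± 0.203, edgeR adjusted p = 3.68e-12). NCU07405, NCU06289 and NCU05631, without annotated products, shifted by 6.04, 5.61 and 5.23.

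The opposite reversal was also found in genes outside the lists above. NCU05788, without an annotated product, had 7.43 and 5.72 CPM in △stk-12, against 2.14 and 3.00 CPM in WT, at 3d, and 4.85 and 4.83 CPM in △stk-12, against 115 and 149 CPM in WT, at 5d, and its WT level rose by 5.69 on the log2 scale (shift -6.13 ± 0.297, edgeR adjusted p = 1.08e-10). NCU08407, annotated as a transporter of the major facilitator superfamily, shifted by -4.79. At 5d it was low in both strains, with 1.51 and 1.56 CPM in △stk-12, against 2.56 and 2.56 CPM in WT. That 5d difference of -0.74, on which its call as reversed rests, passed narrowly (edgeR adjusted p = 0.0451). Among the faded genes, ce3-2, annotated as a cellulose-binding protein, shifted by -3.94 and NCU06607, without an annotated product, by -3.87. The 30 genes named by the size of the shift were picked as the largest past the test in these same counts. Passing it again under the 15 alternatives run for single genes was thus largely set by that choice.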

How the data were processed

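Read counts per gene were deposited by the authors in 1 table, next to values per gene that, per the file headers, are RPKM; the RPKM values were not used in the tests. TopHat2 2.0.8b and HTSeq 0.5.4p3 are named in the submitters' processing notes, and the genome build and the strand used in counting are not given in the sources used here. Reads on entries without a gene name stayed out, 4.43% in △stk-12 5d replicate 1 and 6.86% in WT 3d replicate 2. Symbols came from a RefSeq table (assembly NC12) or, where it had none, from the deposited table, and the order of loci from the RefSeq table, which held 9729 of the 9730 genes; 1927 genes had a symbol.

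The counts were analysed in R 4.3.3 with edgeR 4.0.16. filterByExpr left 8983 genes and removed 747. A quasi-likelihood model with TMM scaling and 1 mean for each of the 8 strain and time groups was fitted to all 16 libraries, 2 per group, because the 8 libraries of 3d and 5d would leave 4 residual degrees of freedom; the fit had 8, with 0.0685 as the common biological coefficient of variation. The contrast (△stk-12 5d minus WT 5d) minus (△stk-12 3d minus WT 3d) gave the shift, and the strain difference at each day and the step of each strain were contrasts of the same fit. Benjamini-Hochberg adjustment covered the whole table of tested genes, and the threshold was 0.05. Standard errors (SE) are the absolute log2 value divided by the square root of the F statistic. The scripts were tested on simulated data.

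Named by rule were the 5 genes with the largest shift per class and sign, given at least 50 CPM in 1 of the 4 groups, at least 10 reads in each of the 8 libraries and no overlap of the strains at the day of the larger difference (both days for reversed genes); further stk-12, members of the enzyme, regulator, transporter and conidiation lists, and the 3 most extreme members in each direction of the other lists. The members, lists and rules were chosen with earlier results of these data known. Alternatives were other scalings, filters and thresholds, DESeq2 1.42.0, the 8 libraries alone, the replicate number as a block, and leaving out each library. Sequences were not analysed here.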

Additional observations from a re-analysis of the deposited data

Results flagged for a closer look

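The strain difference was tested for a change between the days in each gene, and 4663 genes passed that test of the difference itself. Any gene reported above as past the test for the shift therefore meets the criterion of 2 groups that differ under the same contrast, and the genes named by the size of the shift are listed here with it (log2, △stk-12 minus WT at 5d less the same at 3d). Among genes that were higher in △stk-12 at 3d and lower at 5d these were fea-1 at -6.86, NCU05788 at -6.13, the urea transporter gene NCU09909 at -5.54, the transporter gene NCU08407 at -4.79 and the monooxygenase gene gh61-12 at -4.76. In the opposite reversal NCU05699 stood at 6.41, NCU07405 at 6.04, NCU07819 at 5.64, NCU06289 at 5.61 and NCU05631 at 5.23. Of the differences that faded, the copper transporter gene tcu-1 had -6.41, NCU00829 -5.51, gh6-3 -3.96, ce3-2 -3.94 and NCU06607 -3.87 where △stk-12 was higher at 3d, and NCU04935 had 4.06, NCU09650 3.90, NCU10910 3.41, NCU04167 3.38 and NCU05888 3.29 where it was lower. Of the differences that grew, NCU16673 had 6.73, NCU04276 6.30, NCU01871 5.57, NCU05338 5.20 and the uricase gene NCU07853 4.92 where △stk-12 was higher at 5d, and ccg-13 had -3.62, the chitin deacetylase gene NCU09508 -3.62, the beta-glucosidase gene gh3-6 -2.67, NCU00607 -2.49 and NCU05839 -2.12 where it was lower.

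Reads assigned to no gene were listed in the table for 2 of the 8 libraries, outside any comparison. Their share was 4.43% in △stk-12 5d replicate 1 and 6.86% in WT 3d replicate 2.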

How the results depend on the processing

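None of the results recomputed changed direction while past the test. With library totals in place of TMM, 605 genes faded from higher and 1576 from lower in △stk-12, 636 grew to higher at 5d, and 1648 genes were higher and 4249 lower in △stk-12 at 3d; the median difference of the genes tested was then -0.25 at 3d and -0.11 at 5d, in place of -0.019 and -0.005. At an adjusted p of 0.01, 249 genes reversed from lower to higher. With a floor of 2-fold, the shift was past the test for 1403 genes (585 above 0, 818 below), the strain difference for 1479 at 3d (593 higher, 886 lower) and 1443 at 5d (462 higher, 981 lower), the △stk-12 step for 1482 (683 rose, 799 fell) and the WT step for 1017 (608 rose, 409 fell). In the classes 165 genes then reversed from lower to higher, 230 faded from higher, 230 from lower, 188 grew to higher and 261 to lower. Leaving out each library in turn gave 3962 to 4442 genes with a shift, and 270 to 425 reversed from lower to higher, with the lowest count without △stk-12 3d replicate 1. DESeq2 called 4361 genes, DESeq2 size factors in edgeR 4627, no filter 4620, a stricter filter 4641 and the 8 libraries alone 4742.

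The replicate numbers did not pair the libraries (correlations of deviations from -0.145 to 0.0101); with the replicate block 4631 genes had a shift. Of 220 single genes past the test, 191 passed under every alternative and 29 were lost under at least 1; of 52 not past it, 19 passed under at least 1. With 2 libraries per group, each left-out library leaves a lone one that is assumed to vary like the other groups.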

Other observations

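The following values were looked up after the results above had been seen. The 5 named genes whose difference grew toward △stk-12 were also high in WT at 1 day (1d). NCU16673 had 2.52 and 42.6 CPM in △stk-12 at 1d, against 432 and 334 CPM in WT, and 1967 and 1882 CPM in △stk-12 at 5d, against 23.6 and 14.7 CPM in WT. NCU04276 had 22.1 and 327 CPM in △stk-12 at 1d, against 1974 and 1640.3 CPM in WT. NCU01871, NCU05338 and the uricase gene NCU07853 had the same order, with 32.0 and 199.7, 46.2 and 235, and 25.7 and 219 CPM in △stk-12 at 1d, against 928 and 826, 961 and 742, and 550.4 and 502 CPM in WT. The 2 △stk-12 libraries of 1d were far apart in each of these genes, and this spread enters their standard errors. The reversed gene NCU07405 had the same order, with 26.7 and 188.5 CPM in △stk-12 at 1d, against 636 and 576.1 CPM in WT. At 5d it had 1534.5 and 1346.5 CPM in △stk-12, against 71.6 and 51.8 CPM in WT. The share of genes with both WT libraries of 1d above both △stk-12 libraries, given above for the genes whose difference grew toward △stk-12, ran in the other classes from 17.2% (grew, lower in △stk-12 at 5d) to 46.1% (reversed, lower then higher). No test was made of these shares.

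Some reversed genes were near 0 before 3d. NCU06289 and NCU05631, which reversed from lower to higher, had at most 0.145 CPM in any library of 12 h and 1d. At 3d NCU06289 had 2.57 and 2.5 CPM in △stk-12, against 51.9 and 50.4 CPM in WT, and NCU05631 had 3.52 and 4.28 CPM in △stk-12, against 66.7 and 70.1 CPM in WT. The copper transporter gene tcu-1, whose difference faded, was not near 0 before 3d. It had 35.6 and 34.2 CPM in △stk-12 at 12 h, against 32 and 28.4 CPM in WT. At 1d it had 12.5 and 13.1 CPM in △stk-12, against 10.8 and 10.3 CPM in WT.

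In the order of loci of the reference table, 3 runs of at least 5 adjacent genes shifted by at least 2-fold in 1 direction, each of them below 0. The first held 6 genes, NCU04947 to gh3-4, the second 5, NCU07031 to the chitinase gene gh18-9, and the third 6, NCU01072 to NCU01077. Their shifts ran from -1.13 (NCU04947) to -1.86 (NCU04951) in the first run, from -1.56 (gh18-9) to -3.02 (NCU07031) in the second and from -1.50 (NCU01074) to -2.06 (NCU01077) in the third. Whether runs of this length exceed those of genes taken at random was not tested.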
